A study of Mus musculus with 6 samples.

Results

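The genes described here are the 5 subunits of the transcription factor NF-kB (Nfkb1, Nfkb2, Rela, Relb and Rel) and 5 genes whose proteins hold it back or modify it (Nfkbia, Nfkbib, Nfkbie, Nfkbiz and Tnfaip3). They were taken by symbol from the deposited expression table, which holds all 10 among its 55335 genes. Expression was measured by RNA sequencing in macrophages grown for 6 days from the bone marrow of male wildtype C57BL/6 mice aged 6 to 8 weeks. The 3 cultures of the CM + 4OI group received conditioned medium with 200 µM 4-octyl itaconate (4OI), an esterified form of itaconate that crosses cell membranes; itaconate is made by activated macrophages. The 3 cultures of the CM group received the conditioned medium alone. In both groups the medium came from pancreatic acinar cells stimulated for 5 h with 200 nM caerulein, a peptide used to model acute pancreatitis, and was applied 1:1 for 4 h. No culture free of conditioned medium enters the comparison, so every level below is a level under that medium.

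NF-kB is a family of dimers that switch on inflammatory and survival genes. In resting macrophages most dimers sit in the cytoplasm, bound by inhibitors of the IkB family. Receptors for bacterial products, interleukin 1 and TNF activate a kinase complex that marks IkB proteins for destruction, after which the dimers enter the nucleus. Many genes of the family are NF-kB targets themselves, so the pathway refills its own inhibitors and some of its own subunits. Transcript levels do not measure how much NF-kB is in the nucleus.

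Levels are given in FPKM, in which fragment numbers are corrected for gene length and library depth, so they can be compared between genes. Depths estimated from the smallest steps of the values were 22.0 to 25.3 M fragments in CM + 4OI and 17.996 to 24.5 M in CM (M, mega). Rel, the member with a single annotated transcript, was thereby covered by an estimated 806 to 970 fragments per CM + 4OI library and 1056 to 1410 per CM library. All 8 macrophage markers were at 1 FPKM or above, and their sum was 10488 to 11081 FPKM in CM + 4OI and 10282.5 to 11039.5 FPKM in CM. Lyz2, at a mean of 8640 FPKM, made up most of that sum. Of the 8, Mertk (12.1 to 14.0 FPKM in CM + 4OI, 21.7 to 24.7 in CM), Fcgr1 (353 to 412 FPKM in CM + 4OI, 525 to 567 in CM) and Spi1 (88.3 to 102 FPKM in CM + 4OI, 117 to 131 in CM) fell along with the members (limma adjusted p = 3.85e-04, 0.0018 and 0.00605), and their part in the results was not tested. The other 5 were not called. The 6 markers of B and T cells summed to at most 0.0729 FPKM in CM + 4OI and 0.225 FPKM in CM, with Cd3d and Cd8a at 0 in every library. The ranges of summed FPKM overlapped between the groups for the 8 acinar markers (8.13 to 15.2 in CM + 4OI, 7.39 to 12.2 in CM), the 6 fibroblast markers (8.12 to 29.8, against 5.85 to 52.9 in CM) and the 6 neutrophil markers (41.4 to 52.0, against 35.7 to 65.7 in CM). Of the neutrophil markers only S100a8 and S100a9 had a mean of at least 1 FPKM, and Ly6g was at 0 in every library. Replicate 2 stood apart in both groups for the fibroblast marker Col1a1, which was at 4.23, 16.6 and 4.30 FPKM in CM + 4OI and 4.69, 29.0 and 2.93 FPKM in CM. The 5 dendritic cell markers summed to 0.581 to 0.644 FPKM in CM + 4OI and 0.760 to 1.08 FPKM in CM, with Flt3 at 0 in every library, and their part in the results was not tested. In such bulk samples, fewer cells of a type and less RNA per cell cannot be told apart.

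With 4OI added, 7 of the 10 genes fell. They were Nfkb1, Nfkb2, Relb and Rel among the subunits and Nfkbia, Nfkbie and Nfkbiz among the genes that hold NF-kB back or modify it. No member rose. Rela, the subunit gene with the highest level, Nfkbib and Tnfaip3 did not pass the test. Mean levels of the genes that fell were 40.7% to 67.1% of those in CM, and in each of the 7 every CM + 4OI library lay below every CM library. The comparison used limma on log2(FPKM + 1) over the 10468 genes with a mean of at least 1 FPKM, all 10 members included, with Benjamini-Hochberg adjustment and a threshold of 0.05. Over all tested genes 13.2% were called lower and 19.3% higher, 32.5% in either direction. The groups lay apart on the lower side in 17.8% of all tested genes and on the higher side in 31.2%. The median log2 fold change was -0.56 for the members and 0.06 for all tested genes. At an unadjusted p under 0.05, 8 members were lower and 0 higher. The share of all tested genes at an unadjusted p, here and below, was not computed. It cannot be below 13.2% lower and 19.3% higher, because every gene called at the adjusted threshold also passes unadjusted. Of all calls 59.3% were higher, or 44.7% after median-of-ratios scaling between libraries, and the same 7 members were called lower with that scaling. Without replicate 2 of both groups, 6 of the 7 were called lower and Nfkb2 was not. In that fit 1012 of all 10468 tested genes were called lower and 1089 higher.

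**Figure D1:**
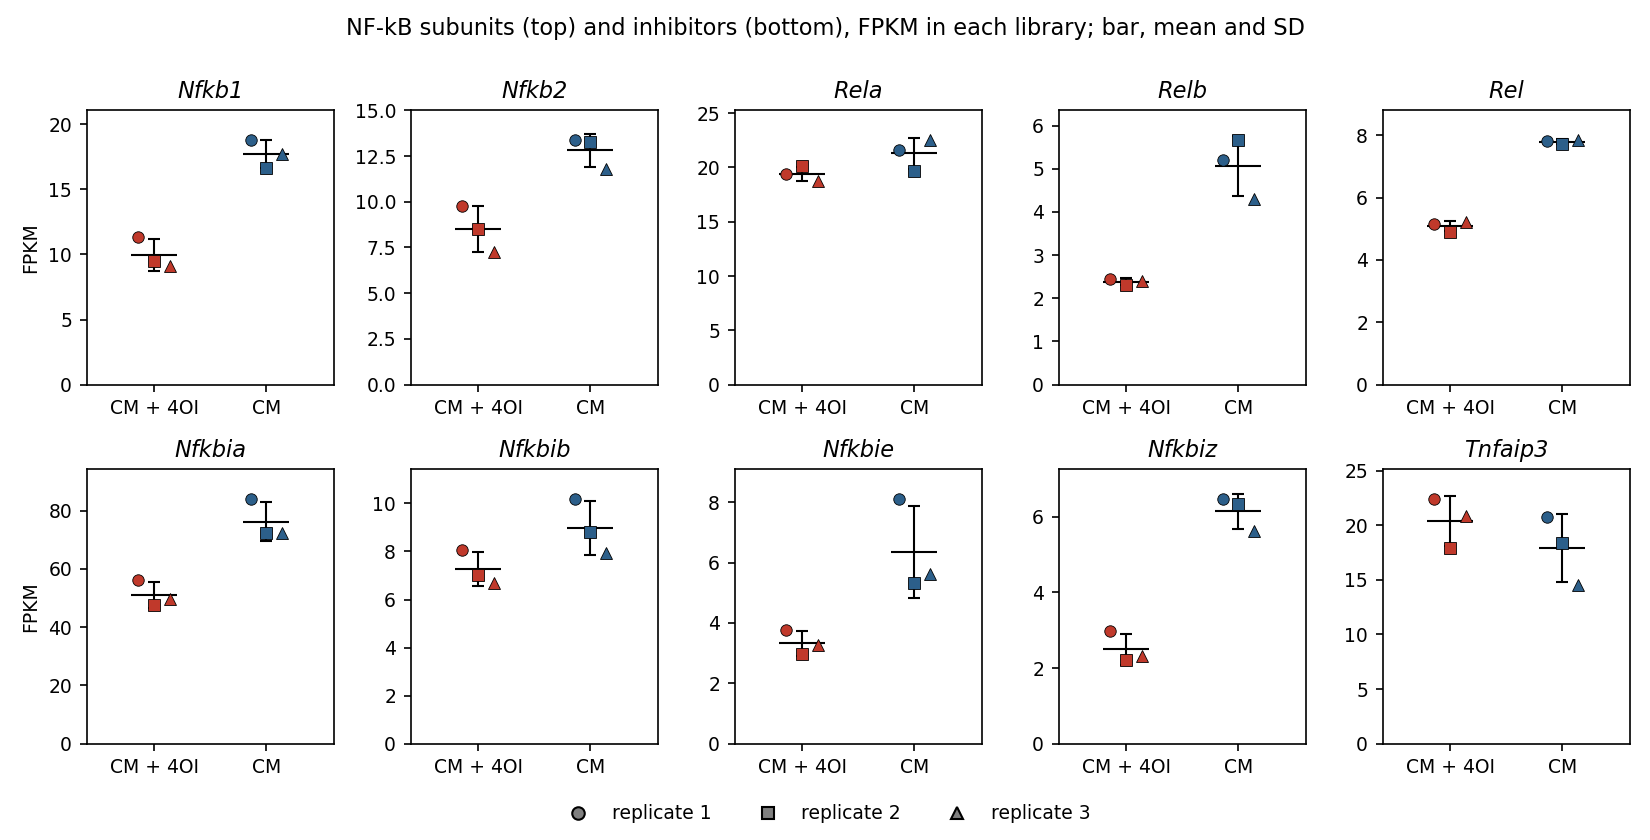
FPKM (vertical axis, from 0) of the 5 subunit genes (upper row) and the 5 genes that hold NF-kB back or modify it (lower row). CM + 4OI stands left of CM. Points are libraries, with a symbol per replicate number, and bars give mean and SD of 3 libraries. The groups are apart in 7 genes, while Rela, Nfkbib and Tnfaip3 overlap.

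**Figure D2:**
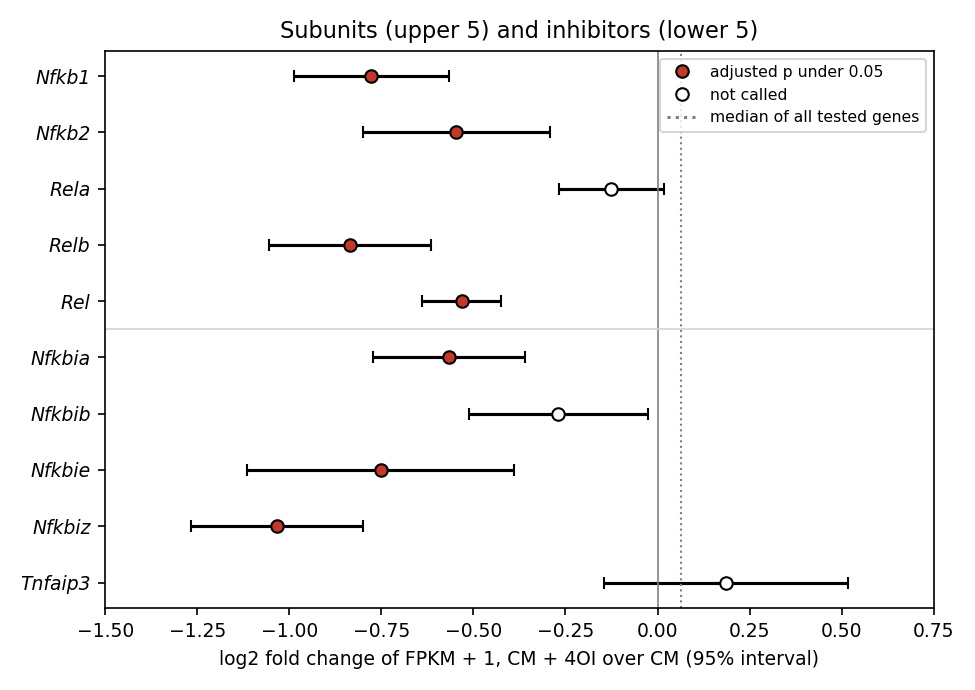
Log2 fold change of FPKM + 1 (horizontal axis), CM + 4OI over CM, with 95% limma intervals; filled points passed an adjusted p of 0.05 and the dotted line is the median of all tested genes. Values run from -1.03 for Nfkbiz to 0.19 for Tnfaip3.

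The promoters of these genes are shown because NF-kB binds a known DNA motif. The part of that motif in the changes of the members was not tested. RefSeq windows from 250 bases before to 50 bases after the start (build GRCm38.p6) were matched by symbol for 7 of the 10 members, in 10 windows. Nfkb1, Relb and Nfkbiz had no entry. The windows were searched on both strands for the kappa B consensus, the motif bound by Rel proteins. It was written as GGGRNNYYCC, where R is A or G, Y is C or T and N is any base. It was found in 8.46% of all 32851 windows and in at least 1 window of 9.55% of genes. Among the members it was found for Nfkb2, Rel, Nfkbia, Nfkbie and Tnfaip3, and not for Rela or Nfkbib. The looser pattern GGGNNNNNCC, which contains every match of the consensus, was present in 50.8% of all windows, in at least 1 window of 53.5% of genes and in 6 of the 7 members. The 5 windows below hold the most highly expressed inhibitor, the 2 subunits that fell and were matched, and the pair of abundant members that were not called. They are written 5′ to 3′ along the gene, and capitals mark bases that match the consensus on either strand, with overlapping matches run together.
Nfkbia (chr12:55492598-55492897, minus strand): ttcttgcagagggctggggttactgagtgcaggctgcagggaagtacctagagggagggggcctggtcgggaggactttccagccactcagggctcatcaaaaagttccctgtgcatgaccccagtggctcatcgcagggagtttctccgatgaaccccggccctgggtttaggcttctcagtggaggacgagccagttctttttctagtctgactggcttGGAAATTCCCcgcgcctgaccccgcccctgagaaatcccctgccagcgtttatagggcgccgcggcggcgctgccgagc
Nfkb2, the outermost of 3 starts (chr19:46304487-46304786, plus strand): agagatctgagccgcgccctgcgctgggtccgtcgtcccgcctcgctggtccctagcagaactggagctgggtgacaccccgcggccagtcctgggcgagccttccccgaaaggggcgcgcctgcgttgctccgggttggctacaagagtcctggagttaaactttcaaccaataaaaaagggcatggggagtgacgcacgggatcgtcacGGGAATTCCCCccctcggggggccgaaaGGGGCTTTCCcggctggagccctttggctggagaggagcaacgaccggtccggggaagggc
Rel (chr11:23770920-23771219, minus strand): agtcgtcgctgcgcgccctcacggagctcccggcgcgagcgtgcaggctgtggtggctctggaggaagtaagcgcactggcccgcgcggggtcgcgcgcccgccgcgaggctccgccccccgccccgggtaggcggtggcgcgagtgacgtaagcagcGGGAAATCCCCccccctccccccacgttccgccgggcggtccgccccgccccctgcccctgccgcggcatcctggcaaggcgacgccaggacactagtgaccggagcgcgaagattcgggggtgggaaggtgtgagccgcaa
Tnfaip3, the outer of 2 starts (chr10:19015361-19015660, minus strand): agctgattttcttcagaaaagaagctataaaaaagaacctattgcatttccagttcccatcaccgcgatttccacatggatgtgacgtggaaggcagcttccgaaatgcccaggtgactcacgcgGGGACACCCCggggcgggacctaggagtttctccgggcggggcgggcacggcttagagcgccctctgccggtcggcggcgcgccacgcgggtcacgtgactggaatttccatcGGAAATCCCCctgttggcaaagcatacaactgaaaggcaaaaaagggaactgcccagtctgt
Rela (chr19:5637291-5637590, plus strand): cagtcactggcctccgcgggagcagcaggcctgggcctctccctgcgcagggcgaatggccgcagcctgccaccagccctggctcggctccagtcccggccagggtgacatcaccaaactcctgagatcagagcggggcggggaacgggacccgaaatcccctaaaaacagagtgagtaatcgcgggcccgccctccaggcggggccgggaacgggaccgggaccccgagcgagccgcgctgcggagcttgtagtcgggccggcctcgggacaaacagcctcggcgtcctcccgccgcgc

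In Nfkbia the match GGGAATTTCC lay on the strand opposite to the gene, its first base in the window 29 bases before the start. The outer Nfkb2 window held GGGAATTCCC at 39 bases and GGGGCTTTCC at 11 bases before the start. In the windows of the other two Nfkb2 starts, which overlap each other, the same GGGACTTTCC was found, and the earlier of both also held GGGACATTCC on the opposite strand. Rel had GGGAAATCCC at 92 bases before the start and Nfkbie had GGGGGATTCC at 106 bases. The Tnfaip3 window held GGGACACCCC at 125 bases and, on the opposite strand, GGGGATTTCC at 12 bases before the start. A match was present both in genes that fell and in Tnfaip3, which was not called, and these matches are letters in a window, not measured binding.

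**Figure D3:**
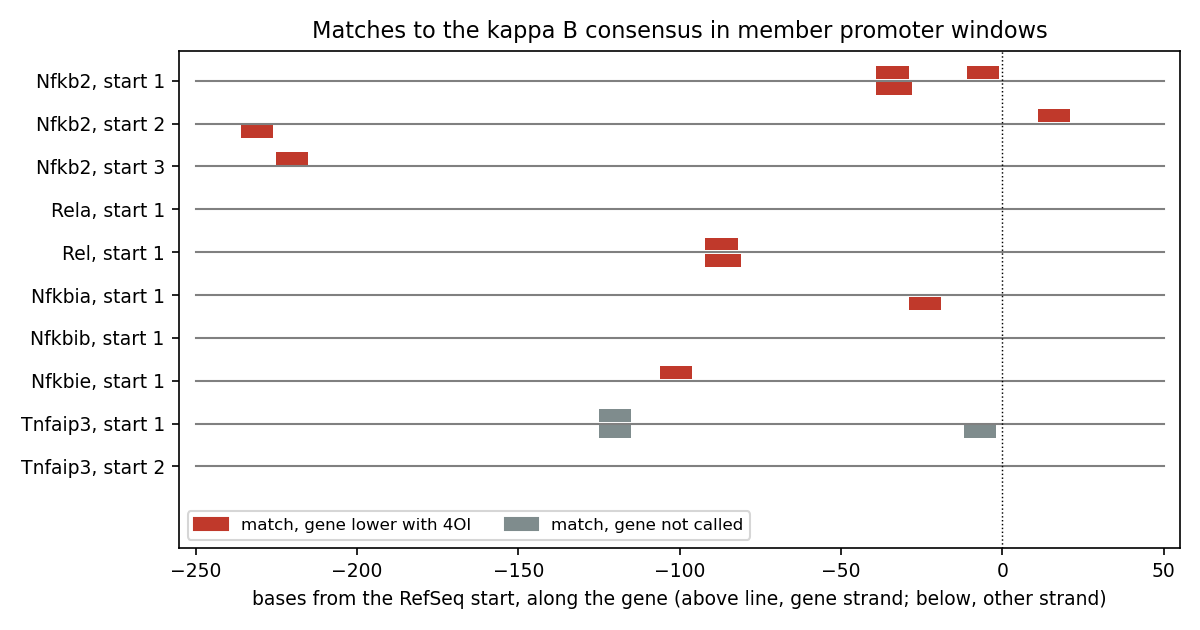
Matches to the kappa B consensus (boxes of 10 bases, above the line on the gene's strand and below it on the other) in 10 RefSeq promoter windows of 7 members; the horizontal axis is the distance in bases from the start. Red boxes belong to genes called lower with 4OI and grey boxes to Tnfaip3; the Rela and Nfkbib windows and that of the inner Tnfaip3 start hold no match.

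Among the subunits, Nfkb1 encodes p105, the precursor of the p50 subunit (ENSMUSG00000028163, chromosome 3, 135584655 to 135691547, minus strand, mm10). It was at 11.3, 9.46 and 9.09 FPKM in CM + 4OI replicates 1, 2 and 3, and at 18.8, 16.6 and 17.7 FPKM in the CM replicates. All 3 libraries with 4OI lay below all 3 without it. The means were 9.96 ± 1.20 FPKM in CM + 4OI and 17.7 ± 1.09 FPKM in CM (SD, with n = 3 per group throughout), and on the log2 scale limma put the difference at -0.78 (SE 0.088, adjusted p = 9.95e-04). Nfkb2 encodes p100, which both restrains RelB and is cut to the p52 subunit (ENSMUSG00000025225, chromosome 19, 46304320 to 46312385, plus strand). Its level was 9.76, 8.51 and 7.23 FPKM in CM + 4OI and 13.4, 13.3 and 11.8 FPKM in CM, again without overlap. The log2 fold change of Nfkb2 was -0.55 (SE 0.11, limma adjusted p = 0.00912), and the adjusted p was 0.0758 without replicate 2 of both groups. Of its exon length 18.1% overlaps AC114539.1 and Psd on the other strand, where Psd averaged 0.237 FPKM in CM + 4OI and 0.288 FPKM in CM. No level was taken for AC114539.1, and the part of other-strand reads in the Nfkb2 values was not tested.

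Relb encodes the subunit that partners p52 in the noncanonical pathway (ENSMUSG00000002983, chromosome 7, 19606217 to 19629438, minus strand). It was at 2.46, 2.31 and 2.39 FPKM in CM + 4OI and at 5.21, 5.68 and 4.31 FPKM in CM. This was the subunit with the lowest level in both groups and the one with the lowest log2 fold change, -0.84 (SE 0.091, limma adjusted p = 8.66e-04), a mean 2.12-fold lower with 4OI. Rel encodes c-Rel, a subunit of lymphoid and myeloid cells (ENSMUSG00000020275, chromosome 11, 23736847 to 23770970, minus strand). It stood at 5.14, 4.91 and 5.20 FPKM in CM + 4OI and 7.82, 7.71 and 7.86 FPKM in CM. Replicates of Rel differed little, with a coefficient of variation of 3.00% in CM + 4OI and 1.04% in CM. Its log2 fold change was -0.53 (SE 0.044, limma adjusted p = 2.92e-04).

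Rela encodes p65, the subunit that carries the transactivation domain of the classical p50 dimer (ENSMUSG00000024927, chromosome 19, 5637483 to 5648130, plus strand). It was at 19.4, 20.1 and 18.8 FPKM in CM + 4OI and 21.6, 19.7 and 22.6 FPKM in CM. Replicate 2 of CM + 4OI lay above replicate 2 of CM, so the groups overlapped. The log2 fold change of -0.13 did not pass the test (95% interval -0.27 to 0.02, limma adjusted p = 0.158), and the adjusted p ran from 0.0534 to 0.363 over 17 alternatives.

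The composition of the subunit transcripts was compared within each library. Summed over the 5 genes, FPKM was 48.0, 45.3 and 42.7 in CM + 4OI replicates 1, 2 and 3 and 66.9, 63.0 and 64.2 in CM. Rela made up 40.3%, 44.4% and 44.0% of that sum in CM + 4OI and 32.3%, 31.3% and 35.1% in CM, so that its share was higher in every CM + 4OI library than in any CM library. The shares restate the levels given above, in which the other subunits fell and Rela was not called, and are not a separate finding. The share of Nfkb1 was 21.9% ± 1.45 in CM + 4OI and 27.4% ± 0.881 in CM, and that of Relb 5.27% ± 0.285 in CM + 4OI and 7.84% ± 1.15 in CM, both without overlap. In each of these 3 shares the two-sided exact permutation p was 0.1, the smallest that 3 against 3 libraries can give, and 0.2 after Benjamini-Hochberg adjustment over the 5 shares and the inhibitor ratio. The shares of Nfkb2 (18.7% ± 1.69 in CM + 4OI, 19.8% ± 1.38 in CM, exact permutation p = 0.5, adjusted 0.6) and Rel (11.2% ± 0.817, against 12.1% ± 0.309 in CM, exact permutation p = 0.2, adjusted 0.3) overlapped between the groups. Per library, Nfkb1 transcripts stood at 0.585, 0.471 and 0.484 of the Rela level in CM + 4OI and at 0.870, 0.845 and 0.786 in CM. This last ratio was chosen after its values were seen.

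Among the inhibitors, Nfkbia encodes IkB alpha, the fast-acting inhibitor that NF-kB itself re-induces (ENSMUSG00000021025, chromosome 12, 55489410 to 55492647, minus strand). It was the most abundant of the 10 transcripts, at 56.2, 47.7 and 49.6 FPKM in CM + 4OI and 84.1, 72.3 and 72.3 FPKM in CM. The lowest CM library was above the highest CM + 4OI library. Nfkbia fell to 67.1% of its mean in CM (log2 fold change -0.57, SE 0.085, limma adjusted p = 0.00333). Nfkbie encodes IkB epsilon, a slower inhibitor that is also an NF-kB target (ENSMUSG00000023947, chromosome 17, 45555703 to 45563169, plus strand). Its level was 3.76, 2.96 and 3.25 FPKM in CM + 4OI and 8.11, 5.32 and 5.63 FPKM in CM, where replicate 1 stood above the other two. The log2 fold change of Nfkbie was -0.75 (SE 0.15, limma adjusted p = 0.0106), and -0.59 without CM replicate 1 (adjusted p = 0.00893).

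Nfkbiz encodes IkB zeta, a nuclear member of the family that works as a coactivator of a subset of NF-kB targets rather than as a cytoplasmic anchor (ENSMUSG00000035356, chromosome 16, 55811375 to 55838899, minus strand). It was at 2.97, 2.23 and 2.31 FPKM in CM + 4OI and 6.48, 6.34 and 5.62 FPKM in CM. This was the lowest log2 fold change of the 10 genes, -1.03 (SE 0.097, limma adjusted p = 4.79e-04), with a mean 2.46-fold lower with 4OI. In each library Nfkbiz stood at a small fraction of Nfkbia, 0.0529, 0.0467 and 0.0465 in CM + 4OI and 0.0771, 0.0876 and 0.0776 in CM, a ratio chosen after its values were seen (exact permutation p = 0.1, two-sided).

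Nfkbib encodes IkB beta, which is not rapidly re-induced by NF-kB (ENSMUSG00000030595, chromosome 7, 28758251 to 28767512, minus strand). It was at 8.07, 7.02 and 6.69 FPKM in CM + 4OI and 10.2, 8.81 and 7.93 FPKM in CM. CM + 4OI replicate 1 lay above CM replicate 3, yet within each same-numbered pair the CM + 4OI library was lower, at 0.792, 0.798 and 0.843 of its CM partner. For the log2 fold change of -0.27 (SE 0.101), limma gave an adjusted p of 0.087 without the replicate number in the fit and 0.0117 with the replicate number as a block. Of the exon length of Nfkbib 16.4% overlaps Ccer2 and Sirt2 on the other strand. Ccer2 was listed at 0 in every library, and Sirt2 averaged 11.2 ± 1.86 FPKM in CM + 4OI and 10.6 ± 0.211 FPKM in CM (limma adjusted p = 0.685).

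Tnfaip3 encodes A20, a ubiquitin-editing enzyme that shuts off signalling above the IkB kinases (ENSMUSG00000019850, chromosome 10, 19000910 to 19015657, minus strand). It was at 22.4, 17.9 and 20.8 FPKM in CM + 4OI and at 20.8, 18.4 and 14.5 FPKM in CM. The groups overlapped, and CM + 4OI was above CM in 2 of the 3 same-numbered pairs and below it in 1. The log2 fold change was 0.19 (95% interval -0.15 to 0.52, limma adjusted p = 0.346), an interval that does not reach the -0.57 of Nfkbia. Within each library Tnfaip3 stood at 0.399, 0.376 and 0.420 of Nfkbia in CM + 4OI and at 0.247, 0.254 and 0.201 in CM. This ratio, chosen after its values were seen, was higher in every CM + 4OI library than in any CM library (exact permutation p = 0.1, two-sided).

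Summed over Nfkbia, Nfkbib and Nfkbie, the IkB transcripts amounted to 68.0, 57.6 and 59.6 FPKM in CM + 4OI and 102, 86.5 and 85.9 FPKM in CM. Divided by the summed subunit transcripts of the same library, they gave 1.42, 1.27 and 1.40 in CM + 4OI and 1.53, 1.37 and 1.34 in CM. The ratio was 1.36 ± 0.0777 in CM + 4OI and 1.41 ± 0.103 in CM, and the groups overlapped (difference -0.05, exact permutation p = 0.6, two-sided). Both sums were lower in every CM + 4OI library, and a change in their ratio was not detected with 3 libraries in each group. The sign of this difference depended on single choices: it was 0.00614 without CM replicate 1 and 0.0338 after quantile normalization.

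**Figure D4:**
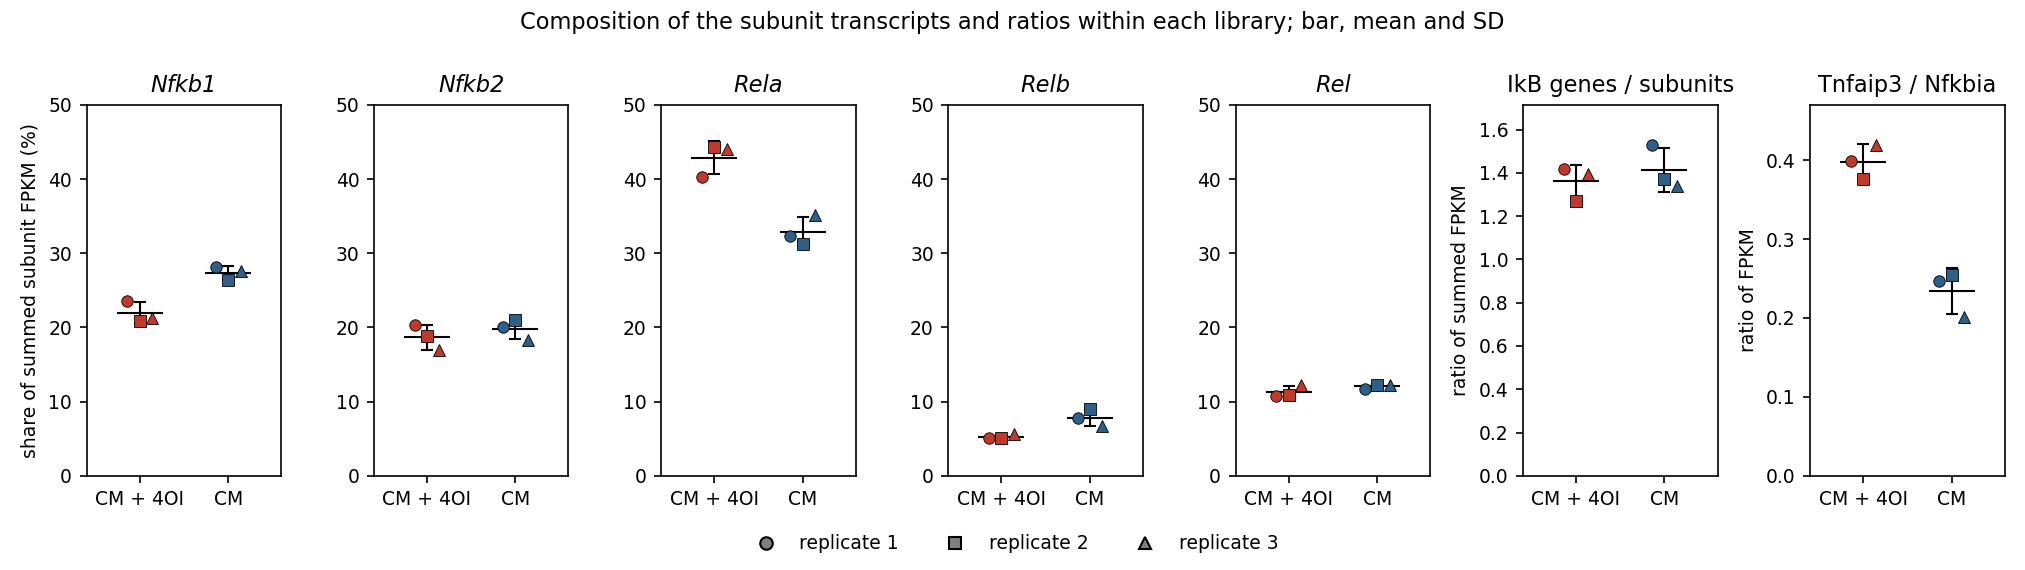
The first 5 panels give each subunit's share (%) of the summed subunit FPKM, the sixth the ratio of summed Nfkbia, Nfkbib and Nfkbie FPKM to summed subunit FPKM, and the last the ratio of Tnfaip3 to Nfkbia FPKM, with CM + 4OI left of CM; points are libraries and bars give mean and SD. The Rela share and the Tnfaip3 ratio are higher and the Nfkb1 and Relb shares lower in every CM + 4OI library, while the inhibitor ratio overlaps.

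Ordered by mean FPKM, the CM + 4OI group ran Nfkbia, Tnfaip3, Rela, Nfkb1, Nfkb2, Nfkbib, Rel, Nfkbie, Nfkbiz and Relb. In CM the order was the same except that Rela stood above Tnfaip3. Nfkbia, above 94.1% of all tested genes by mean FPKM over the 6 libraries, did not overlap its neighbour in either group. In CM + 4OI the library ranges overlapped between Tnfaip3 and Rela, between Nfkb1 and Nfkb2, between Nfkb2 and Nfkbib, between Nfkbie and Nfkbiz, and between Nfkbiz and Relb. In CM they overlapped between Rela and Tnfaip3, between Tnfaip3 and Nfkb1, and between each neighbouring pair of Rel, Nfkbie, Nfkbiz and Relb. Nfkb1 thus stood within the range of Tnfaip3 in CM and below every Tnfaip3 value in CM + 4OI. Relb held the lowest position of the 10 members, above 34.6% of all tested genes.

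The rest of the pathway was described with 8 lists of genes, 78 in all, of which 71 were tested by limma, 27 fell and 8 rose, counting among those that fell Lcn2, which passed the filter on low values only through CM. For comparison, 13.2% of all tested genes were called lower and 19.3% higher. The lists were chosen with earlier results of these data known, so their counts and medians are descriptions and not independent support. Of 13 primary NF-kB target genes 10 fell and 0 rose, with a median log2 fold change of -0.71, and 1 of them was higher at an unadjusted p under 0.05. Those taken by the rule for named genes were the chemokines Ccl4 (24.5 ± 8.02 FPKM in CM + 4OI, 187 ± 28.5 FPKM in CM) and Ccl3 (22.2 ± 7.468 FPKM in CM + 4OI, 117 ± 22.8 FPKM in CM) and the cytokine Il1b (1.35 ± 0.643 FPKM in CM + 4OI, 8.84 ± 1.41 FPKM in CM). Their log2 fold changes were -2.92, -2.37 and -2.09, beyond that of any of the 10 members. Without single libraries the number that fell was 8 to 10. The gene higher at an unadjusted p was Ptgs2, the inducible cyclooxygenase, named after its values were seen. It was at 11.7, 16.5 and 9.27 FPKM in CM + 4OI and 3.15, 10.9 and 3.81 FPKM in CM. The groups overlapped, while CM + 4OI was higher in each same-numbered pair. Its limma adjusted p was 0.0924, and 0.0174 with the replicate number as a block. Csf1, a macrophage growth factor named after its values were seen, was at 5.59, 12.5 and 6.27 FPKM in CM + 4OI and 10.4, 20.4 and 9.75 FPKM in CM, with a limma adjusted p of 0.202, and 0.00182 with the block. Both genes were highest in replicate 2 of each group, as was Col1a1. Without replicate 2 of both groups their limma adjusted p was 0.00624 for Ptgs2 (higher) and 0.00931 for Csf1 (lower). With the block, 11 primary targets fell and 1 rose. Without CM replicate 2, 8 fell and 1 rose. Over all 10468 tested genes, 1523 fell and 2336 rose with the block, and 1246 fell and 1855 rose without CM replicate 2.

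Of 11 kinases, the IkB kinases and those above them, 3 fell and 2 rose. Over all tested genes the shares were 13.2% lower and 19.3% higher, for comparison with this and the following lists. Chuk and Ikbkb, the catalytic subunits of the IkB kinase complex, were not called (log2 fold changes 0.06 and 0.10, limma adjusted p = 0.324 and 0.141). Ikbkg encodes NEMO, the regulatory subunit of that complex, and was at 10.5, 21.2 and 12.8 FPKM in CM + 4OI and 5.32, 5.20 and 4.99 FPKM in CM. Replicate 2 of CM + 4OI stood far above the other two, and all 3 stood above CM (log2 fold change 1.30, SE 0.23, limma adjusted p = 0.00622). Of the Ikbkg exon length 5.15% overlaps G6pdx on the other strand, which itself was at 102 ± 2.34 FPKM in CM + 4OI and 63.8 ± 2.86 FPKM in CM; the part of G6pdx reads in the Ikbkg values was not tested. Map3k14, the kinase NIK of the noncanonical pathway, also rose, with a log2 fold change of 0.58 (limma adjusted p = 7.66e-04). Ikbke, an IkB kinase relative, fell to 6.65 ± 0.669 FPKM in CM + 4OI, against 21.6 ± 2.99 FPKM in CM (log2 fold change -1.56, limma adjusted p = 1.62e-04). Map3k8, the kinase TPL2 that p105 binds and restrains, fell to 3.47 ± 0.518 FPKM in CM + 4OI, against 5.73 ± 0.263 FPKM in CM (limma adjusted p = 0.0040).

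Among 9 tested IkB-like proteins and nuclear cofactors, Bcl3 fell, 0 rose and 8 were not called (median log2 fold change -0.04), and 2 were higher at an unadjusted p under 0.05 with limma. With the replicate number as a block 1 rose, Nkrf, a nuclear repressor of NF-kB target genes (adjusted p = 0.0393, and 0.0834 without the block). Nkrf was not called when median-of-ratios scaling was added to the block (limma adjusted p = 0.0729). Nkiras2 of this list was then called lower (limma adjusted p = 0.0439, and 0.442 in the main fit), which made 2 lower. Of all tested genes 1920 were called lower and 1529 higher in that fit. Bcl3 is a nuclear IkB protein that works with p50 and p52 dimers. It was at 5.26, 5.17 and 5.29 FPKM in CM + 4OI and 10.9, 10.5 and 10.3 FPKM in CM, and its log2 fold change was -0.89 (SE 0.044, limma adjusted p = 4.83e-05). Of its exon length 6.51% overlaps Gm16175 on the other strand, and the part of Gm16175 reads in the Bcl3 values was not tested. Nfkbid, the remaining nuclear IkB gene on the list, was not called (log2 fold change 0.04, limma adjusted p = 0.774).

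Of the 10 genes of A20 partners and other deubiquitinases, 3 fell and 2 rose (median log2 fold change -0.01). Tnip1 and Tnip3, which encode ubiquitin-binding partners of A20, fell. Tnip1 was at 13.8 ± 1.29 FPKM in CM + 4OI and 20.003 ± 1.20 FPKM in CM (log2 fold change -0.51, limma adjusted p = 0.00325), and Tnip3 at 1.82 ± 0.321 FPKM in CM + 4OI and 2.97 ± 0.170 FPKM in CM (log2 fold change -0.50, limma adjusted p = 0.0085). Without any single library the number that fell was 2. Otulin, which cuts linear ubiquitin chains, rose slightly, with a log2 fold change of 0.30 (limma adjusted p = 0.0371), but lost the call in 11 of 17 alternatives. These included the fits without CM + 4OI replicate 1 or 2 or CM replicate 1 or 2 (adjusted p = 0.0888, 0.096, 0.105 and 0.0854), and with the replicate number as a block the adjusted p was 0.0572. With the block Otud7b was called higher (limma adjusted p = 0.0244, and 0.0546 without it). Cyld, called lower in the main fit (limma adjusted p = 0.0414), was not called with the block (0.0567).

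Of 11 tested TRAF, cIAP and linear ubiquitin ligase genes 4 fell and 1 rose (median log2 fold change -0.06). Birc3, the NF-kB-inducible ligase cIAP2, was at 5.57 ± 0.339 FPKM in CM + 4OI and 8.40 ± 0.756 FPKM in CM (log2 fold change -0.52, limma adjusted p = 0.00265). Rnf31, the catalytic subunit of the linear ubiquitin ligase, was at 6.92 ± 0.358 FPKM in CM + 4OI and 10.02 ± 0.327 FPKM in CM (log2 fold change -0.48, limma adjusted p = 9.33e-04). Birc2 encodes cIAP1, a relative of cIAP2, and had a log2 fold change of -0.27 (limma adjusted p = 0.0296). Its limma adjusted p was 0.0891, 0.0917, 0.0836 and 0.0684 without CM + 4OI replicate 2 or 3 or CM replicate 1 or 2. The number that fell was 2 without CM + 4OI replicate 2, without CM + 4OI replicate 3 and without CM replicate 1, and 0 rose when any single library was left out.

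Of 10 tested receptors and adaptors 4 fell and 1 rose (median log2 fold change -0.15). Cd40 fell to 2.94 ± 0.940 FPKM in CM + 4OI, against 16.2 ± 3.14 FPKM in CM, and the bacterial lipoprotein receptor Tlr2 to 42.7 ± 10.5 FPKM in CM + 4OI, against 123 ± 20.2 FPKM in CM (limma adjusted p = 5.00e-04 and 0.00136). Myd88, the adaptor of Toll-like and interleukin 1 receptors, was at 40.8 ± 2.27 FPKM in CM + 4OI and 68.4 ± 1.81 FPKM in CM (log2 fold change -0.73, limma adjusted p = 1.54e-04). Acaa1a, on the other strand, covers 11.3% of the Myd88 exon length, and the part of its reads in the Myd88 values was not tested. The TNF receptor genes Tnfrsf1a and Tnfrsf1b were not called (log2 fold changes -0.09 and 0.13, limma adjusted p = 0.0875 and 0.0581). With the replicate number as a block Tnfrsf1b was called higher (adjusted p = 0.0272), which made 2 genes of the list higher. When median-of-ratios scaling was added to the block, Tnfrsf1b was not called (limma adjusted p = 0.236). Tnfrsf1a was then called lower (limma adjusted p = 0.0124). The number of genes of this list that rose was 0 without CM + 4OI replicate 1 or 3 or CM replicate 1, 2 or 3.

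Of the 5 genes of the ubiquitin ligase that marks IkB proteins, 1 fell and 2 rose, all with log2 fold changes within -0.33 and 0.25. Fbxw11, a substrate receptor of the ligase, was at 21.4 ± 0.627 FPKM in CM + 4OI and 27.1 ± 0.634 FPKM in CM (limma adjusted p = 0.00165). Its scaffold Cul1 was at 22.5 ± 0.682 FPKM in CM + 4OI and 18.8 ± 0.926 FPKM in CM (limma adjusted p = 0.0112). The linker Skp1a had a log2 fold change of 0.16 (limma adjusted p = 0.0349), and lost the call without CM + 4OI replicate 1, 2 or 3 or CM replicate 1 or 3 (adjusted p = 0.0934, 0.0857, 0.0737, 0.0915 and 0.104).

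Of 6 genes known to need IkB zeta in mouse macrophages, 2 passed the filter on low values. Ebi3, a cytokine subunit of the interleukin 12 family, was at 15.8, 12.4 and 13.2 FPKM in CM + 4OI and 17.6, 15.4 and 15.3 FPKM in CM. Its groups overlapped (log2 fold change -0.21, limma adjusted p = 0.147), and with the replicate number as a block the adjusted p was 0.0258. Lcn2 passed the filter only through its level in CM, so its call is given as a description. Lcn2, an iron-binding antibacterial protein, was at 0.977 ± 0.0959 FPKM in CM + 4OI and 1.69 ± 0.406 FPKM in CM (log2 fold change -0.43, limma adjusted p = 0.032), and lost the call without CM + 4OI replicate 1, 2 or 3 (adjusted p = 0.0737, 0.0991 and 0.0674) and with the replicate number as a block (0.0519). Il6, below the filter and not tested, was at 0.363, 0.184 and 0.269 FPKM in CM + 4OI and 1.11, 1.14 and 0.965 FPKM in CM, without overlap. Il12b, Csf2 and Csf3 were each at 0 in at least 1 library, and none exceeded 0.195 FPKM in any.

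**Figure D5:**
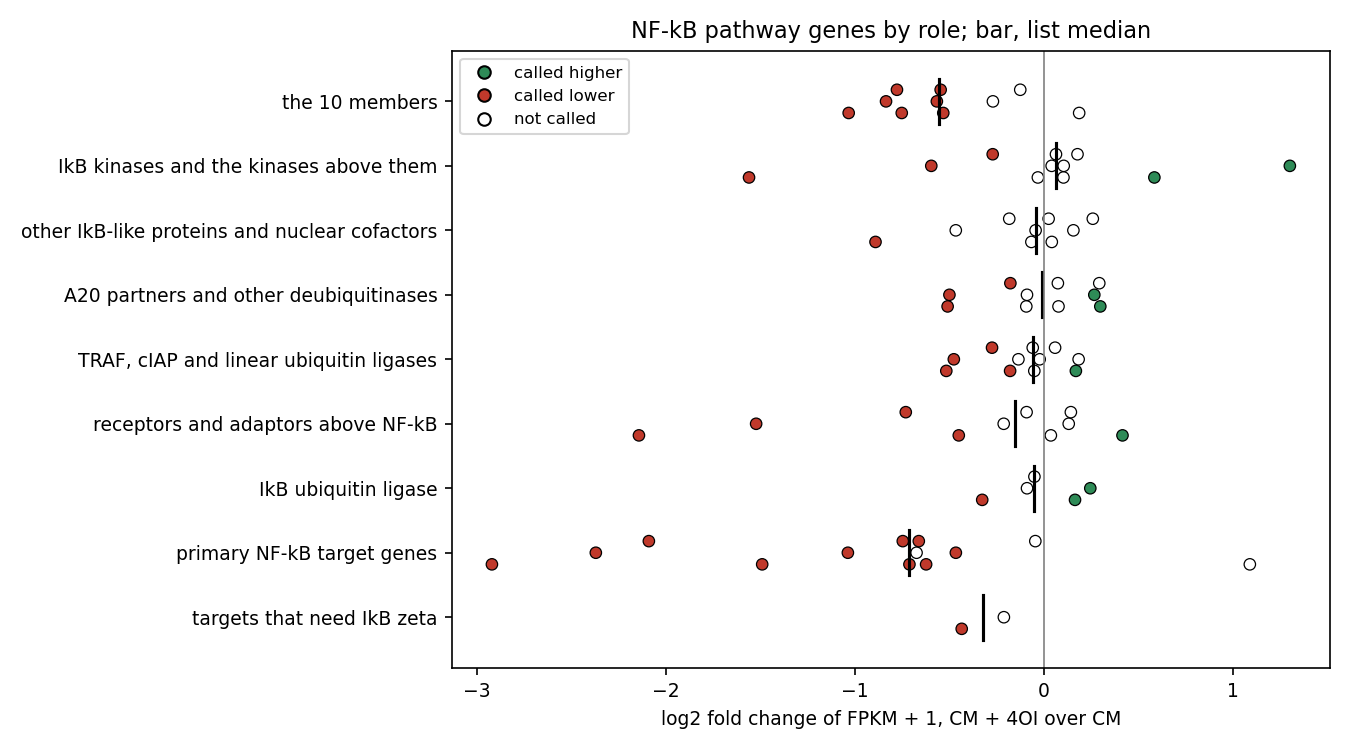
Log2 fold change of FPKM + 1 (horizontal axis), CM + 4OI over CM, for the 10 members and the 71 tested genes of 8 pathway lists; each point is a gene, filled green where called higher and red where called lower, and bars give list medians. The medians of the members (-0.56) and of the primary target genes (-0.71) lie left of those of the signalling lists, which run from -0.15 to 0.06. Members and lists were chosen with earlier results of these data known.

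The genes whose profile over the 6 libraries was closest to that of Nfkbiz, by Euclidean distance between gene-centred log2(FPKM + 1) values, were Isg15, Mefv, Ctsc, Lcp2 and Cxcl16, at distances of 0.141, 0.161, 0.168, 0.184 and 0.189. Isg15, a ubiquitin-like interferon-induced protein, was at 356 ± 45.4 FPKM in CM + 4OI and 683 ± 31.1 FPKM in CM. Mefv, which encodes pyrin, was at 2.44 ± 0.233 FPKM in CM + 4OI and 6.15 ± 0.536 FPKM in CM. Among the members, Relb (0.336) and Nfkb1 (0.361) lay nearest to Nfkbiz, with 105 and 123 tested genes closer, Nfkbiz itself counted. Tnfaip3 lay farthest, at 1.52. Zmynd15, on the other strand, covers 18.3% of the Cxcl16 exon length, and the part of its reads in the Cxcl16 values was not tested.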

How the data were processed

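The authors' deposited table gives FPKM per gene, 1 column per library. Per the labels' protocols, RNA of 3 independent cultures per group was read on a NovaSeq instrument, paired-end, 150 nt per read. FastQC 0.11.2 and build mm10 are recorded, per the submitters' processing notes. For the aligner, quantifier, annotation and strand setting: not given in the sources used here. Without strand, a gene's reads cannot be told from those of an antisense neighbour. GENCODE release M21 holds 99.7% of the table's IDs (GRCm38, the same assembly as mm10) and is the source of gene coordinates and overlaps. Promoter windows are from RefSeq.

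The test was limma (version 3.58.1, R version 4.3.3) of log2(FPKM + 1), without covariates and with the prior variance following the mean, over genes with a mean of at least 1 FPKM. P-values were two-sided and adjusted by Benjamini-Hochberg over all tested genes. Log2 fold changes on this scale understate changes of low genes. FPKM are not counts, so depth was inferred from single-transcript genes, as the value of 1 fragment in FPKM multiplied by length. The limma fit, not the depth estimate, was tested on simulated data. Shares and ratios used exact permutation over the 20 splits of 6 libraries. Python 3.11.15, pandas 2.3.3, numpy 2.4.6 and matplotlib 3.10.9 handled tables and plots.

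Members and lists were chosen with earlier results of these data known. The rule for named genes took all members, up to 3 called genes per list with the largest absolute log2 fold change, and the 5 genes nearest in profile to the member with the largest change, clone and predicted names left out. Chuk, Ikbkb, Map3k14, Nfkbid, Tnfrsf1a, Tnfrsf1b, Il6, Il12b, Csf2, Csf3, Ptgs2, Csf1, Ebi3, Nkrf, Nkiras2, Otud7b and Cyld were named after their values were seen.

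The groups share replicate numbers. Deviations of gene values from their group's mean had r = 0.344, 0.427 and 0.185 between the libraries numbered 1, 2 and 3 in each group. Between libraries of different number r ran from -0.343 to 0.0262. Deviations cancel within a group, so these correlations depend on each other. The numbers were treated as a possible pairing, and a fit with the number as a block was run beside the main one. The main fit and the exact permutation tests did not use the pairing. What a number stands for is not in the labels. Alternatives varied the pseudocount, the filter, the scaling, the variance trend, library weights, the block and the libraries left out.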

Additional observations from a re-analysis of the deposited data

How the results depend on the processing

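The number of members called lower was 7 as reported and 7 when any single library was left out. It was 8 with the replicate number as a block, where Nfkbib joined (adjusted p = 0.0117, and 0.00656 with median-of-ratios scaling as well) and no other member changed its call. It was 4 at a mean of at least 5 FPKM, where 7 members were tested. Of all 5871 genes tested at that filter, 1063 were called lower and 1473 higher. Over 167 refits of single members, 164 kept direction and side of the threshold, and none changed sign; Nfkb2 lost its call without replicate 2 of both groups. Over all tested genes the number called higher was 2020, with 1311 to 1855 when single libraries were left out. It was 1089 without replicate 2 of both groups and 2336 with the replicate block. The number called lower was 1385, with 1148 to 1246 when single libraries were left out. It was 1012 without replicate 2 of both groups and 1523 with the replicate block. With median-of-ratios scaling, 1371 were higher and 1696 lower. The difference in the ratio of IkB to subunit transcripts changed sign after quantile normalization (0.0338) and without CM replicate 1 (0.00614), and the cause was not tested; leaving out single libraries gave -0.0906 to 0.00614. The exact sign-flip test over 3 same-numbered pairs cannot go below 0.25, so that test could not pass for a share or ratio; no other paired test of them was run. Changes of Rela and Tnfaip3 were not detected with 3 libraries per group in any of 17 alternatives.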
